A study of Mus musculus with 12 samples.

Results

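The p200 family, also called the HIN-200 or PYHIN family, is a set of interferon-inducible genes that lie next to each other on mouse chromosome 1. The 10 genes described here, namely Mndal, Ifi203, Ifi204, Ifi205, Ifi207, Ifi209, Ifi211, Ifi213, Ifi214 and Aim2, are 10 of the 57010 genes in the count table. They were chosen by name with gene counts of these 3 groups in view, as HIN-200 genes that vary between mouse strains. The measured values behind that choice are the same counts, so the differences between groups are given as a description, with counting or replicate error but without p-values. The table held 4 more genes of the family, Ifi202b, Ifi206, Ifi208 and the pseudogene Ifi203-ps, which makes 14 in all.

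Most p200 proteins carry a pyrin domain, through which they bind other pyrin proteins, and one or more HIN domains, which bind DNA. Aim2 is the cytosolic double-stranded DNA sensor that assembles an inflammasome with the adaptor ASC (encoded by Pycard) and caspase-1, and Ifi204 is the mouse counterpart most often compared with human IFI16, which signals through STING. In brain these genes are known mainly from microglia and from the response of many cell types to type I interferon, and the number and sequence of the family's genes differ widely between inbred mouse strains.

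Gene counts came from bulk RNA sequencing of the cerebellum of mice (crus 1, going by the series title) in 3 groups of 4 libraries. One group was FVB mice given saline, another was Fmr1 knock out mice given saline (called sham in the titles), and the third was Fmr1 knock out mice given poly(I:C), a synthetic double-stranded RNA, by intraperitoneal injection. Fmr1 encodes the RNA-binding protein FMRP and is the gene that the labels give as knocked out. The labels give no age, sex, dose, time after injection or background strain of the knockout line, no FVB group with poly(I:C) was analysed here, and nothing states that the libraries of a group came from separate animals, so the errors measure the spread between these libraries.

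Each FVB library held 35.2 to 48.7 M counts, each saline knockout library 38.7 to 50.2 M and each treated one 39.4 to 56.4 M. Levels are given in CPM, counts divided by the library's M counts after TMM scaling between libraries. Fmr1 lay at 85.5 to 107.8 CPM in FVB, 27.9 to 36.8 CPM in the saline knockout and 33.9 to 36.0 CPM in the treated knockout, with all knockout libraries below the lowest FVB library. Saline knockout 2 and treated knockouts 2 and 3 stood apart in Ttr, the main transcript of the choroid plexus, at 4156, 2167 and 2631 CPM against at most 65.3 CPM in the other 9 libraries. Summed markers of cerebellar neurons lay at 8698 to 9545 CPM in FVB, 8791 to 9642 CPM in the saline knockout and 8628 to 9166 CPM in the treated knockout.

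Promoters are shown first, because they carry a short sequence shared across most of the family. RefSeq promoters of 300 bases (250 before and 50 after the start, build GRCm38.p6) were at hand for 9 of the 10 members and for 12 of the 14 family genes. They were searched on both strands for the core of the interferon-stimulated response element, GAAANNGAAA, which is bound by the interferon-activated factor ISGF3 and by IRF proteins. Each line gives 100 bases, 5′ to 3′ on the gene's strand, and capitals mark a match. The Ifi205 stretch ends 51 bases before its start and all others end 1 base before it. Mndal and Ifi203 each have 2 listed starts, of which the first of Mndal and the second of Ifi203 are shown.

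Mndal, chr1:173880188-173880287, minus strand: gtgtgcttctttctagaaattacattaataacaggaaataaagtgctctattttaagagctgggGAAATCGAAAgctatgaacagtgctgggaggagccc

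Ifi203, chr1:173942493-173942592, minus strand: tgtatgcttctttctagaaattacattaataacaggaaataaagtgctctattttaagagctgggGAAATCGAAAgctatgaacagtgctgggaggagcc

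Ifi207, chr1:173741810-173741909, minus strand: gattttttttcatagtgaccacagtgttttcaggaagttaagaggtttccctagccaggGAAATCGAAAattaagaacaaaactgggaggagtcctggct

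Ifi211, chr1:173913047-173913146, minus strand: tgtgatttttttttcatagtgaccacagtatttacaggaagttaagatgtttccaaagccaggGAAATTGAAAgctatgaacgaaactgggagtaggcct

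Ifi213, chr1:173599273-173599372, minus strand: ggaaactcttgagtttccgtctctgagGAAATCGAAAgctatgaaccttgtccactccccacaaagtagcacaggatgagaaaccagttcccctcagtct

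Ifi205, chr1:174031806-174031905, minus strand: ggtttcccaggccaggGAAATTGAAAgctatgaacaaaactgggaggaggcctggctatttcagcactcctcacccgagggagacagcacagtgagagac

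Ifi209, chr1:173630759-173630858, plus strand: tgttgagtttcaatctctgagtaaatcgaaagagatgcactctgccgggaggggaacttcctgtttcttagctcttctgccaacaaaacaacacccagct

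Aim2, chr1:173420504-173420603, plus strand: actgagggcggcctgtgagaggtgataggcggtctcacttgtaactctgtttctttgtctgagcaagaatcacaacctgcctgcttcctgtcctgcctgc

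The core was found in 7 of the 9 members' promoters (77.8%), against 3.99% of 27025 mouse genes with promoters of the same length. Ifi209 and Aim2 held no match in these windows, and the first listed start of Ifi203 held none either. In 6 of the 11 interferon-stimulated reference genes with a promoter entry (54.5%) the core was present as well. The match began 36 bases before the start in Mndal, 41 in Ifi207, 37 in Ifi211, 73 in Ifi213, 79 in Ifi214 and 134 in Ifi205. The particular letters GAAATCGAAA, singled out after the sequences were seen, occurred in 16 of the 32851 promoters, and 7 of those 16 belonged to the p200 family: Mndal, Ifi203, Ifi207, Ifi213, Ifi214, Ifi206 and Ifi208. Ifi205 and Ifi211 carried GAAATTGAAA in its place. The promoters of Mndal and Ifi203 share an identical run of 139 bases, of which 97 lie in the Mndal stretch printed above. A GAS element, TTCNNNGAA on either strand, was in none of the 9 members' promoters and in 9.55% of all such genes, while Ifi202b held one. A match is a sequence and no evidence of binding here.

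The family shares sequence within its transcripts too, which bears on how reads are assigned. Of the 50-base words in the transcripts of Ifi211, 72.8% also occur in another p200 gene, and 44.7% occur in Ifi205. The share was 33.4% for Ifi209, all of it with Ifi214, between 5.39% and 19.2% for Mndal, Ifi203, Ifi204, Ifi205, Ifi207, Ifi213 and Ifi214, and 0% for Aim2 and Ifi202b. It was 26.3% for Ifi203-ps, with 24.3% of its words in Ifi203, 20.8% for Ifi208 and 15.8% for Ifi206. Mndal encloses Ifi211 on the same strand, shares 37 exonic bases with Ifi203 and shares 118 with a pseudogene. The sources used here do not state how multi-mapped reads and strand were handled, and levels of Ifi211, Ifi205, Ifi209 and Ifi214 relative to each other are therefore uncertain. The same holds for Ifi203-ps, its differences between groups included, beside the more counted Ifi203.

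Without poly(I:C) most of the family was scarce. In FVB, Ifi205, Ifi213 and Ifi214 had 0 counts in all 4 libraries, which allows up to 0.0189 CPM (3 counts over the group, counting error only), and Ifi211 had 2 counts in all. Per kilobase of exon, Aim2 (0.372 ± 0.0598 CPM per kb, SD, n = 4) and Ifi203 (0.339 ± 0.0544) led in FVB and overlapped each other. Below them, among the genes outside the listed 10, Ifi203-ps was at 0.183 and Ifi202b at 0.134 CPM per kb. Of the listed genes, Ifi209, Ifi204 and Ifi207 followed at 0.0543, 0.0518 and 0.0441 CPM per kb, apart from Ifi203 and overlapping among themselves. Mndal came next at 0.00973 CPM per kb and Ifi211 at 0.00568. In the saline knockout Aim2 (0.405) and Ifi203 (0.388) led again, and Mndal was at 0.183 CPM per kb, below Ifi202b at 0.233. Among the listed 10, Mndal was the next after Ifi203, and every neighbour in that order overlapped the next. Fewer cells of a type and less RNA per cell cannot be told apart in such bulk tissue.

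**Figure D1:**
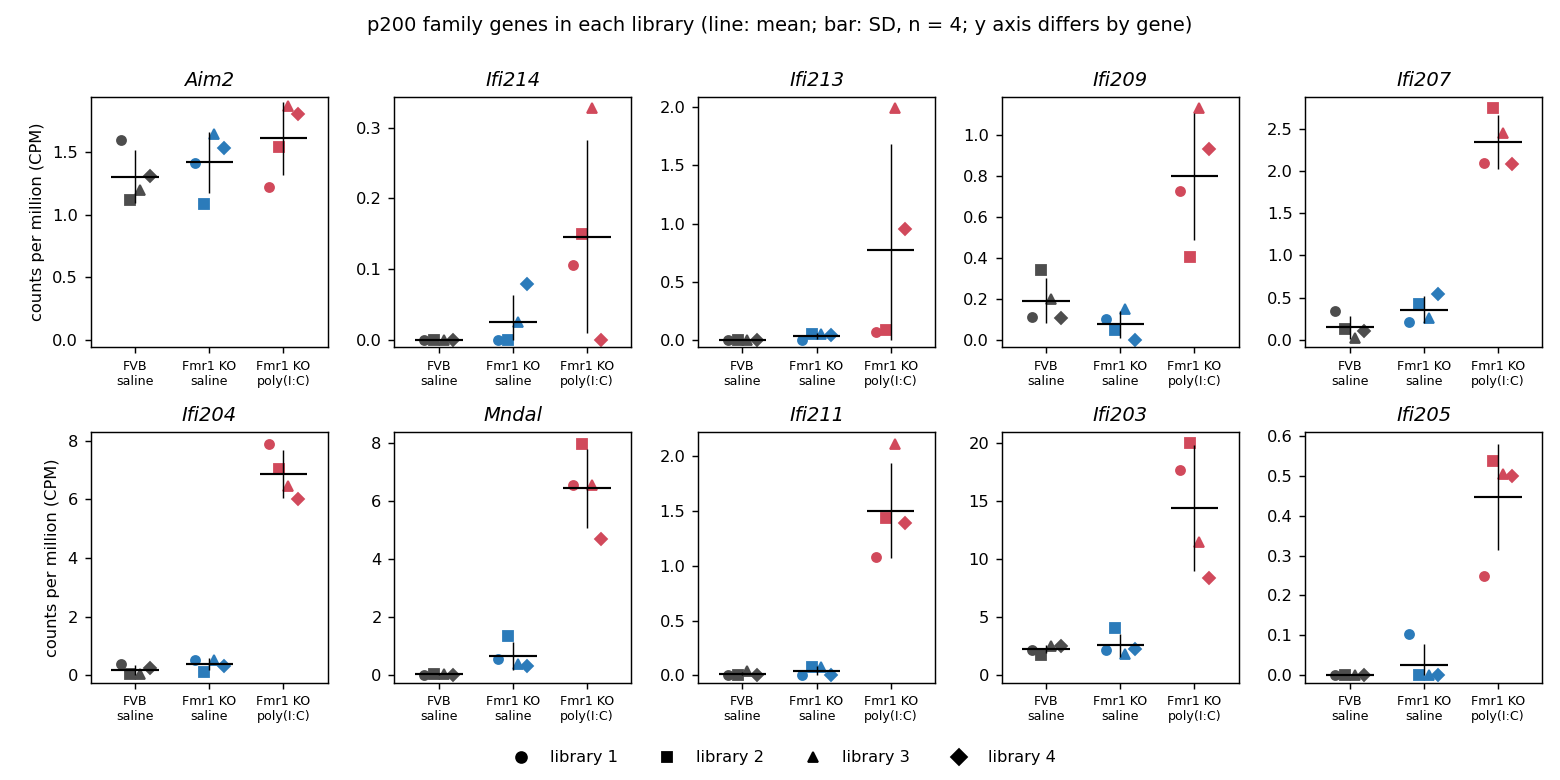
CPM of the 10 listed p200 genes (y axis, scale set per gene) in each library of FVB saline, Fmr1 knockout saline and Fmr1 knockout poly(I:C) mice; marker shapes are libraries 1 to 4, lines the mean and bars the SD of 4. Treated libraries lie above all others except for Aim2 and Ifi214, and Mndal is the gene whose saline knockout libraries (0.314 to 1.36 CPM) lie above all FVB libraries.

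The first comparison, saline knockout against FVB, concerns the difference between the lines without treatment. Loss of Fmr1 and any other difference between the lines cannot be told apart in it. Reads were aligned to GRCm39, the C57BL/6J genome, while the family's genes differ between strains. Low counts in FVB are thus counts of assigned reads, and how fully FVB reads of these genes align was not tested. Mndal was close to 0 in FVB and present in every saline knockout library, while the libraries of the other 9 members overlapped between the groups. Mndal (ENSMUSG00000090272), named for its likeness to the myeloid nuclear differentiation antigen, was at 0, 0.053, 0.0608 and 0.0273 CPM in FVB libraries 1 to 4. In saline knockouts 1 to 4 it was at 0.574, 1.36, 0.41 and 0.314 CPM. All 4 saline knockout libraries lay above all 4 FVB libraries, and the highest was saline knockout 2, one of the libraries with high Ttr. The counts were 6 in FVB and 108 in the saline knockout, a 17.0-fold difference in summed counts over summed library totals and a log2 fold change of 4.03 (SE 0.613). Without the 3 libraries with high Ttr the log2 fold change was 3.41, which is also the lowest value as each library was left out in turn (3.41 without saline knockout 2, up to 4.45 without FVB 3).

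Among the other members, Ifi203, a nuclear p200 protein, was at 2.22, 1.78, 2.58 and 2.51 CPM in FVB and at 2.16, 4.08, 1.85 and 2.32 CPM in the saline knockout. The groups overlapped, saline knockout 2 was again the highest, and the log2 fold change of 0.19 (SE 0.298) became -0.10 without that library. Aim2 was at 1.59, 1.11, 1.2 and 1.31 CPM in FVB and at 1.41, 1.08, 1.64 and 1.53 CPM in the saline knockout, which also overlap (log2 fold change 0.12, SE 0.226). Ifi204 and Ifi207 had log2 fold changes of 1.08 (SE 0.574) and 1.34 (SE 0.499) from 27 against 62 and 22 against 63 counts, and their groups overlapped. As each library was left out in turn, Ifi204 ranged from 0.69 (without FVB 3) to 1.77 (without FVB 1) and Ifi207 from 0.92 to 2.11 (without the same 2). Ifi209, also known as Pyhin1, pointed the other way, at 0.114, 0.345, 0.203 and 0.109 CPM in FVB and at 0.104, 0.0504, 0.154 and 0 CPM in saline knockouts. These ranges overlapped, with a log2 fold change of -1.37 (SE 0.676). Ifi211 had 2 counts in FVB and 6 in the saline knockout, a ratio of 2.84 with an exact counting interval of 0.507 to 28.7. Ifi205, Ifi213 and Ifi214 went from 0 counts to 4, 6 and 5.

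Of the 10 members, 7 passed the filter on low counts and Ifi205, Ifi213 and Ifi214 did not. With only the FVB and saline knockout libraries 4 of the 7 passed, so Ifi207, Ifi209 and Ifi211 entered through the treated libraries. Mndal was the 1 member past an adjusted p of 0.05 in edgeR's quasi-likelihood fit of all genes, where 0.814% of 19166 genes were called higher and 0.72% lower. Since results of this contrast were known when the members were listed, nothing is read from that count. Mndal was also the 1 member without overlap between the groups, higher in the knockout, where 3.57% of tested genes were higher without overlap.

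Above all FVB libraries, as for Mndal, lay the neutrophil and monocyte markers of all 4 saline knockout libraries. Choroid plexus markers did so in library 2 alone. Summed markers of neutrophils and monocytes, 12 genes of which 8 passed the filter, were at 1.26 to 2.76 CPM in FVB, at 6.18, 16.9, 34.8 and 9.59 CPM in saline knockouts 1 to 4 and at 6.21 to 16.9 CPM in the treated knockout. The saline knockout with the most of these markers was library 3, while Mndal was highest in library 2. Of the 8 tested markers edgeR called 3 higher in the saline knockout, where 0.814% of all tested genes were called higher. DESeq2 called 6 in either direction and limma-voom 0, without a share over all tested genes for these tools. Elane, which defines early neutrophils, was at 0 in FVB and in the treated knockout. Summed choroid plexus markers were at 32.8 to 93.8 CPM in FVB and at 36.1, 4401, 47.55 and 34.4 CPM in saline knockouts 1 to 4. They were highest in library 2, as Mndal was. Their median log2 fold change was 2.86, against 2.84 for the neutrophil and monocyte markers, with 0 of 8 called by edgeR, DESeq2 or limma-voom. Summed microglia markers were at 161.6 to 190.7 CPM in FVB and 143.1 to 181.9 CPM in the saline knockout, with 0 of 14 called by edgeR, DESeq2 or limma-voom and 1 at an unadjusted p under 0.05. The part of these cells in the level of Mndal was not tested.

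Genes beside the cluster were set next to it as a regional comparison. Within 1 Mb of the outermost members lay 63 other genes, of which 10 passed the filter, and 0 of these were called between saline knockout and FVB by edgeR, with 2 at an unadjusted p under 0.05 and 1 each called by DESeq2 and limma-voom. For the unadjusted, DESeq2 and limma-voom counts no share over all tested genes is given. The smallest adjusted p among the 10 was that of Ackr1, an atypical chemokine receptor, at 76.1 against 51.1 CPM (log2 fold change 0.57, adjusted p = 0.0533, edgeR's quasi-likelihood test).

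The second comparison, poly(I:C) against saline in the knockout, addresses the response of the family to a viral mimic. Ifi203, Ifi207, Mndal, Ifi209, Ifi204 and Ifi211 were 5.68-fold, 6.20-fold, 10.04-fold, 11.0-fold, 18.8-fold and 40.9-fold higher in summed counts over library totals, and Aim2 was 1.11-fold higher with overlapping groups. Ifi204 was at 0.521, 0.101, 0.538 and 0.334 CPM in saline knockouts 1 to 4 and at 7.9, 7.05, 6.45 and 6.01 CPM in treated knockouts 1 to 4. The groups lay far apart and the treated libraries close together, with a log2 fold change of 4.20 (SE 0.452). Mndal reached 6.56, 7.99, 6.57 and 4.69 CPM in the treated libraries from 0.314 to 1.36 CPM, a log2 fold change of 3.29 (SE 0.371). Again no treated library overlapped a saline one, and the counts were 1220 against 108.

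Ifi203 reached 17.7, 20.1, 11.5 and 8.38 CPM in the treated libraries and had the most counts of the family, 2780. Every treated library was above the highest saline knockout library, and the log2 fold change was 2.47 (SE 0.293). Ifi207, which has a pyrin and a HIN domain, was at 0.209, 0.428, 0.256 and 0.55 CPM in the saline and 2.09, 2.74, 2.44 and 2.08 CPM in the treated knockout. These ranges did not overlap either, and the log2 fold change was 2.66 (SE 0.401).

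Ifi211, the mouse gene also known as Mnda, was at 0, 0.0756, 0.0769 and 0 CPM in the saline and at 1.08, 1.44, 2.12 and 1.39 CPM in the treated knockout. It had the largest fitted difference of the tested members, a log2 fold change of 5.27 (SE 0.608) from 6 against 276 counts. Ifi209 was at 0 to 0.154 CPM in the saline knockout and at 0.726, 0.407, 1.13 and 0.933 CPM in the treated libraries, again without overlap (log2 fold change 3.39, SE 0.602).

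The 3 members below the filter were scarce even after treatment. Ifi205, reported to control the level of ASC in macrophages, was at 0.248, 0.536, 0.504 and 0.499 CPM in treated knockouts 1 to 4, with 82 counts against 4 in the saline group. No treated library overlapped a saline one, and the ratio of summed counts over library totals was 18.2. Ifi214 was at 0.106, 0.15, 0.327 and 0 CPM in the treated and at 0, 0, 0.0256 and 0.0786 CPM in the saline knockout, so the groups overlapped, with 26 against 5 counts. Ifi213 had 131 counts against 6, of which 79 and 44 came from treated knockouts 3 and 4. The ratio for Ifi213 was 19.4 with all libraries and 9.76 without treated knockout 3, and for Ifi214 it was 4.62 and 2.93.

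Aim2 had the smallest difference of the listed genes. It was at 1.22, 1.54, 1.86 and 1.8 CPM in the treated libraries and at 1.08 to 1.64 CPM in the saline knockout, so the groups overlapped. The log2 fold change was 0.18 (SE 0.222), and it was -0.02 without the 3 libraries with high Ttr. In FVB the share of Aim2 in all counts of the 14 family genes was 23.2% to 28.7%, in the saline knockout 13.4% to 28.4%, and in the treated knockout 2.62% to 5.92%. Over the same groups Mndal went from 0% to 1.33%, to 5.26% to 16.8% and to 14.04% to 16.3% of the family's counts. Ifi203 was the most counted gene of the family in all 12 libraries, with 27.5% to 52.6%.

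**Figure D2:**
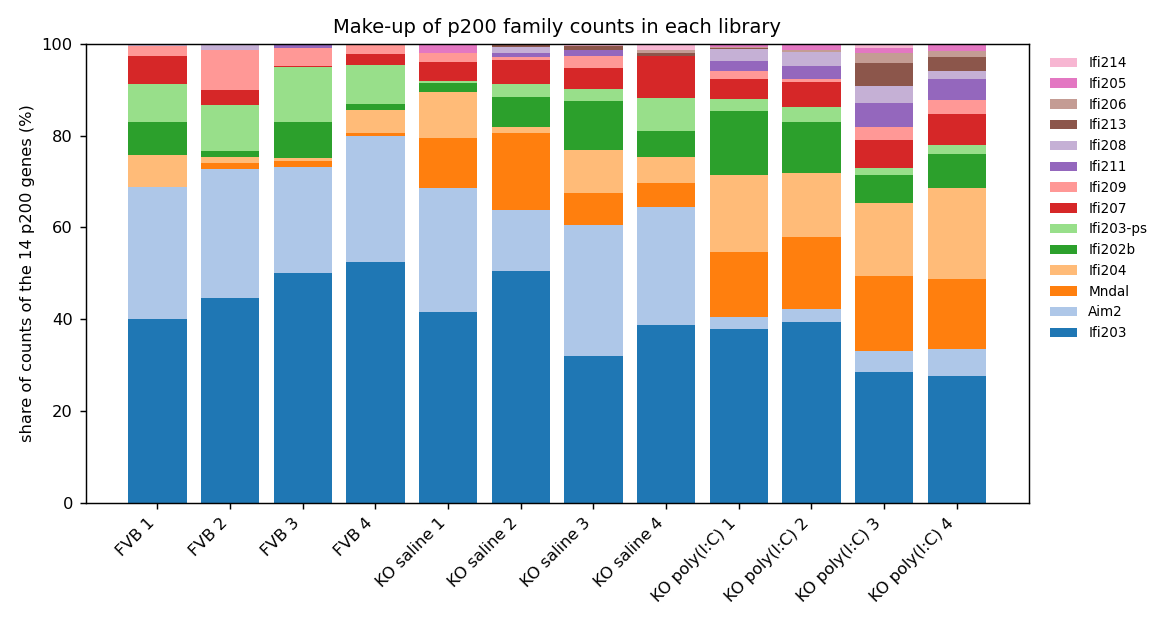
Share of each of the 14 p200 genes (y axis, % of their summed counts) in every library (x axis; FVB saline, knockout saline, knockout poly(I:C)). The Aim2 segment is at most 5.92% in the treated libraries and at least 13.4% in the others, and the Mndal segment is at most 1.33% in FVB and at least 5.26% in the knockout libraries.

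In this comparison 6 of the 7 tested members were called higher, all but Aim2, where 1.81% of all tested genes were called higher and 1.06% lower. The treated libraries lay wholly above the saline knockout libraries for 8 of the 10 members, all but Aim2 and Ifi214, where 4.93% of all tested genes did so. Among the 8 are Ifi205 and Ifi213, which were not tested. Nothing is read from either count, since this contrast was known when the members were listed. The median log2 fold change was -0.0017 over all tested genes and 3.42 over 15 interferon-stimulated reference genes.

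The 4 other genes of the family were also higher in every treated library than in any saline knockout library. Ifi202b, whose protein has HIN domains without a pyrin domain and restrains AIM2, was at 0.104, 0.529, 0.615 and 0.334 CPM in the saline and 6.49, 5.74, 2.47 and 2.26 CPM in the treated knockout. The groups did not overlap, and the log2 fold change was 3.42 (SE 0.605, adjusted p = 0.00882, edgeR's quasi-likelihood test). Without the 3 libraries with high Ttr it was 3.63 with an adjusted p of 0.0824. Ifi208, a pyrin-only protein, was at 0 in 3 saline knockout libraries and 0.101 CPM in library 2, and at 1.19, 1.5, 1.54 and 0.499 CPM in the treated knockout. It had 221 counts against 4, and like Ifi211 it passed the filter through the treated libraries, so no test is given for it. Ifi203-ps rose by 2.19 (SE 0.497, adjusted p = 0.0197, edgeR), a call lost in a fit of only these 2 groups, without saline knockout 2 or 3, without treated knockout 2, and without the libraries with high Ttr (adjusted p of Ifi203-ps 0.0565 to 0.257, edgeR). Ifi206 did not pass the filter and had 66 counts against 2.

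Cell markers were read for this comparison too. By edgeR 1.81% of all tested genes were called higher and 1.06% lower. No such share is given for DESeq2, limma-voom or an unadjusted p. Summed microglia markers were at 143.1 to 181.9 CPM in the saline and 149.0 to 189.1 CPM in the treated knockout. Of 14 microglia markers edgeR called 1 higher (C1qb, a complement subunit) and 2 lower (P2ry12, a purinergic receptor, and Csf1r, the receptor for CSF-1), with 4 called by DESeq2 and 3 by limma-voom. Summed endothelial markers were at 250.3 to 316.0 and 241.4 to 303.1 CPM, with 1 of 8 higher (Ly6c1) and 2 lower (Tek, the angiopoietin receptor, and Slco1a4, an organic anion transporter) by edgeR and 4 called by each of the other tools. Summed neutrophil and monocyte markers were at 6.18 to 34.8 CPM in the saline and 6.21 to 16.9 CPM in the treated knockout. The median log2 fold change of the 8 tested was -1.58, with 6 at an unadjusted p under 0.05 in edgeR. Of these 8 markers edgeR and limma-voom each called 1, Plac8, higher, and DESeq2 called 3 in either direction. The part of these cells in the levels of the p200 genes was not tested.

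**Figure D3:**
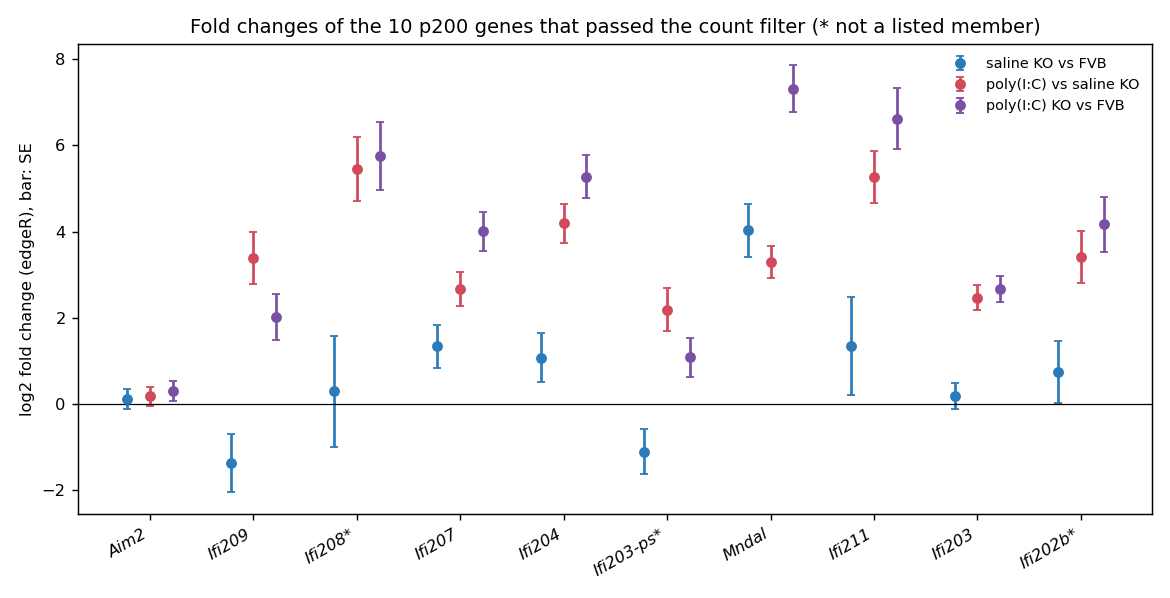
Log2 fold change with its SE (y axis, edgeR fit of all genes) for the 10 p200 genes that passed the count filter, in cluster order, for saline knockout against FVB, poly(I:C) against saline knockout, and treated knockout against FVB; an asterisk marks genes outside the listed 10. Aim2 stays within 0.12 to 0.30 in all 3 comparisons, Mndal has the highest value against FVB (7.32), and the comparisons share groups.

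The third comparison, treated knockout against FVB, spans line and treatment together and shares its libraries with the other 2. The limit on FVB counts given for the first comparison holds here too. Mndal, at 0 to 0.0608 CPM in FVB and 4.69 to 7.99 CPM in the treated knockout, had 1220 against 6 counts, a 170.9-fold difference and a log2 fold change of 7.32 (SE 0.538). Ifi204 had a log2 fold change of 5.27 (SE 0.501) and Ifi207 of 4.00 (SE 0.457). Ifi211 had 276 against 2 counts, a ratio of 116.0 with an exact counting interval of 31.8 to 962.8 and a fitted log2 fold change of 6.62 (SE 0.710). Ifi203 had a log2 fold change of 2.66 (SE 0.297) and Aim2 of 0.30 (SE 0.224). Against the floor of 3 counts in FVB, Ifi205 was at least 23.0-fold higher, Ifi213 at least 36.7-fold and Ifi214 at least 7.29-fold. Treated knockout 3 gave 79 of the 131 counts of Ifi213 and 13 of the 26 of Ifi214, and without it these limits were 18.4 and 4.61.

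Ifi209 is the member with the smallest called difference there, 2.02 (SE 0.528), and its FVB libraries (0.109 to 0.345 CPM) lay below all treated libraries (0.407 to 1.13 CPM). That call was lost without FVB 1, 3 or 4, without treated knockout 3 or 4, and without the libraries with high Ttr, at log2 fold changes of 1.82 to 2.08. Ifi209 passed the filter through the treated libraries, so nothing is read from its call. In all, 6 of 7 tested members were called higher, where 3.81% of all tested genes were (and 3.24% lower). Without overlap 8 of 10 members were higher, among them the untested Ifi205 and Ifi213, where 6.74% of all tested genes were. Aim2 was neither, and Ifi214 overlapped. Nothing is read from either count, since this contrast was known when the members were listed. Ifi207, Ifi209 and Ifi211 also entered through the treated libraries. Of the other family genes, Ifi202b rose in edgeR's test (4.17, adjusted p = 0.00216), Ifi208 had 221 against 3 counts (ratio 61.9, exact counting interval 20.9 to 302.6), and Ifi203-ps had a log2 fold change of 1.08 (adjusted p = 0.179). Of the 10 tested genes within 1 Mb, edgeR called 1, DESeq2 3 and limma-voom 0, with 5 at an unadjusted p under 0.05 in edgeR. All but the edgeR calls lack a share over all tested genes to set beside them. The gene that edgeR called was Fmn2, an actin nucleator, with a log2 fold change of -0.23 (adjusted p = 0.0393, and 0.0162 to 0.22 over 20 alternatives, of which 11 lost the call).

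The order of the levels per kilobase was different in the treated knockout. Ifi203 (2.15 ± 0.805 CPM per kb, SD, n = 4), Ifi204 (1.92 ± 0.23) and Mndal (1.78 ± 0.374) led among the listed 10 and overlapped. Ifi202b, outside the 10, had a higher mean (2.50 ± 1.29), and its libraries overlapped theirs. The 3 listed leaders lay apart from Ifi211 (0.843) and Ifi207 (0.684), which overlapped each other. Aim2, first in both saline groups, was sixth of the 10 at 0.459 ± 0.0834 CPM per kb, apart from its neighbours among the 10 and overlapping Ifi203-ps (0.389 ± 0.196). Ifi209 (0.226), Ifi213 (0.113) and Ifi205 (0.107) followed, each overlapping the next, and Ifi214 (0.018) came last, apart from Ifi205.

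Within the treated group, single libraries differed widely in some of the family's genes. Ifi213 was at 0.0709, 0.0857, 1.99 and 0.955 CPM in treated knockouts 1 to 4, from 4, 4, 79 and 44 counts. Libraries 3 and 4 were high, libraries 1 and 2 lay just above the saline knockout libraries, which reached 0.0513 CPM, and the ratio of the highest to the lowest was 28.1. Ifi206, its neighbour but one in the cluster, was at 0.106, 0.171, 0.882 and 0.369 CPM, also highest in library 3 and lowest in library 1.

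Other members ran differently across the same 4 libraries. Ifi202b was high in libraries 1 and 2 (6.49 and 5.74 CPM) and low in 3 and 4 (2.47 and 2.26 CPM). Ifi203 was also lowest in library 4 and highest in library 2, with a ratio of 2.39, and Ifi203-ps had a ratio of 2.85 with the same highest and lowest library. Ifi209 was lowest in library 2 and highest in library 3. By contrast Ifi204 spanned 6.01 to 7.9 CPM and Ifi207 2.08 to 2.74 CPM, ratios of 1.31 and 1.32.

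The 15 interferon-stimulated reference genes had ratios of 1.26 to 2.32 between their highest and lowest treated library, and 7 of the 13 family genes with a count in all 4 libraries exceeded 2.32. Many of the reference genes have higher counts, so the spread was also set beside genes of similar level. The coefficient of variation of Ifi213 over the treated libraries was 117.3%, above 99.7% of the 3197 tested genes with a mean within 2-fold of it, whose median was 28.0%. For Ifi206 it was 91.9% (above 98.8% of such genes), for Ifi203 37.4% (98.5%), for Ifi202b 51.6% (97.6%) and for Ifi203-ps 50.5% (92.4%). For Ifi204, Ifi205, Ifi207 and Aim2 it was 12.0%, 29.9%, 13.5% and 18.2%, each below the median of genes like it. Ifi213, Ifi206 and Ifi205 did not pass the low-count filter, and the genes set beside them did. That filter removes genes with enough counts in only a few libraries, so the shares for these 3 genes cannot be read as ranks. Ttr was high in treated knockouts 2 and 3, and the neutrophil and monocyte markers were at 6.41, 8.14, 16.9 and 6.21 CPM in treated knockouts 1 to 4. Treated knockout 3, the highest for Ifi213, was also the highest for these markers. Their part in the spread was not tested.

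**Figure D4:**
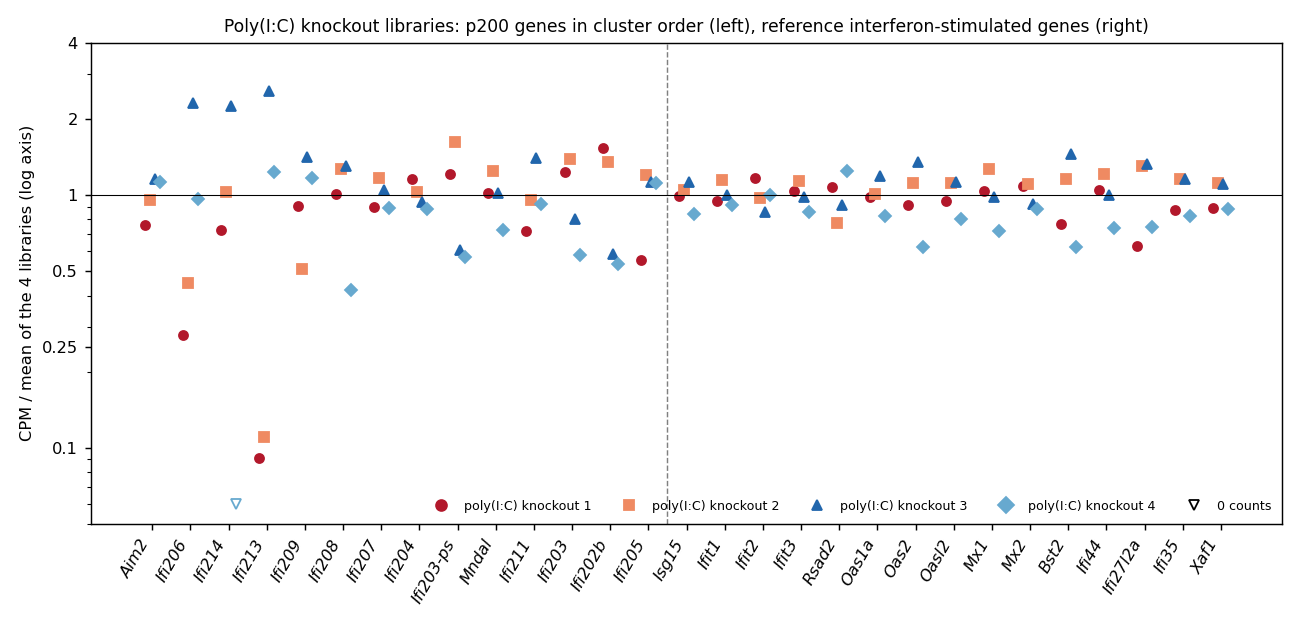
CPM of each treated knockout library divided by the mean of the 4 (y axis, log scale) for the 14 p200 genes in their order along the cluster, left of the dashed line, and for 15 interferon-stimulated reference genes, right of it; an open triangle at the bottom marks 0 counts. Ifi213 spans a 28.1-fold range, whereas the reference genes span 1.26-fold to 2.32-fold.

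Partners of the family were read from 4 lists drawn up by pathway with earlier results of these data known, with edgeR's quasi-likelihood test adjusted over all genes. The reference list of 15 interferon-stimulated genes rose as a whole after poly(I:C): 15 of 15 were called higher, where 1.81% of all tested genes were. Mx1, a GTPase that restricts viruses, went from 0.244 to 11.7 CPM (log2 fold change 5.57), and passed the filter through the treated libraries. No test is therefore given for it, and nothing is read from its call among the 15. Ifit2, an RNA-binding antiviral protein, went from 6.45 to 69.1 CPM (3.42, adjusted p = 9.068e-11). With only the FVB and saline knockout libraries, 49 of the 53 tested pathway genes passed the filter. Between saline knockout and FVB 0 of 15 were called by edgeR or limma-voom and 1 by DESeq2 (Ifi44), with 6 at an unadjusted p under 0.05 and a median log2 fold change of 0.43. The share of all tested genes at that unadjusted threshold is not given, so nothing is read from the 6.

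Of 15 genes that carry the interferon signal to transcription, 6 rose after poly(I:C), against 1.81% of all tested genes, and 9 were not called. Irf7, the factor that amplifies interferon production, went from 3.57 to 81.6 CPM (4.51, adjusted p = 1.141e-05). Usp18, which dampens the interferon receptor, rose by 3.47 (adjusted p = 1.066e-05), and Irf9, the DNA-binding part of ISGF3, by 1.27 (adjusted p = 5.431e-04). Between saline knockout and FVB 0 of 15 were called by edgeR or limma-voom and 1 by DESeq2 (Ifnar1), with 2 at an unadjusted p under 0.05.

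Of 12 genes around the AIM2 inflammasome, 4 rose after poly(I:C), against the same 1.81% of all tested genes, and 8 were not called. Aim2 itself was at 1.42 ± 0.241 CPM before and 1.61 ± 0.292 CPM after (SD, n = 4). Zbp1, a sensor of Z-form nucleic acids, rose by 4.78 (adjusted p = 3.732e-05), and Casp4, the caspase of the non-canonical inflammasome, by 2.93 (adjusted p = 3.005e-05). Gsdmd, the pore-forming protein, rose by 0.98 (adjusted p = 0.0286) and Nek7, a partner of NLRP3, by 0.42 (adjusted p = 0.0141). The calls of Gsdmd and Nek7 were lost without the libraries with high Ttr (adjusted p = 0.233 and 0.148) and when 1 library was left out (saline knockout 1 or 3 or treated knockout 1 or 3 for Gsdmd, saline knockout 3 or treated knockout 3 or 4 for Nek7). Between saline knockout and FVB 1 of the 12 was called, where 0.72% of all tested genes were called lower: Il18, a cytokine that caspase-1 matures, fell by 1.02 (adjusted p = 9.208e-04), from 15.5 to 7.65 CPM. Pycard, at 1.12 ± 0.122 CPM in FVB against 0.612 ± 0.182 CPM in saline knockouts (SD, n = 4), was not called (-0.87, adjusted p = 0.182). Casp1 (-0.72, adjusted p = 0.304) and Ninj1 (-0.21, adjusted p = 0.402) were not called by edgeR either. With Il18 and Pycard they were the 4 of the 12 at an unadjusted p under 0.05 in edgeR, all lower. No share of all tested genes at that unadjusted threshold is given here, so nothing is read from this count. DESeq2 and limma-voom called 1 each.

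Of 11 tested genes of cytosolic DNA sensing through STING, 2 rose after poly(I:C), again against 1.81%, and 9 were not called. Samhd1, which degrades nucleotides needed for viral DNA synthesis, went from 23.6 to 59.96 CPM (1.35, adjusted p = 1.145e-08), and Trim56, an antiviral ubiquitin ligase, rose by 0.66 (adjusted p = 0.0025). The call of Trim56 was lost without the libraries with high Ttr (0.60, adjusted p = 0.0655). Cgas, the enzyme that makes the ligand of STING, had a log2 fold change of 0.64 that was not called (adjusted p = 0.367). Between saline knockout and FVB 0 of the 11 were called by edgeR, DESeq2 or limma-voom, and 0 had an unadjusted p under 0.05. In treated knockout against FVB the calls were 15 higher of 15 reference genes, 6 higher of 15, 4 higher and 1 lower of 12, and 2 higher of 11, where 3.81% of all tested genes were higher and 3.24% lower. Mx1, among the 15 reference genes, had passed the filter through the treated libraries.

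The genes whose log2 CPM followed each tested member most closely over the 12 libraries, among 13415 genes outside the family, are given as a description. The libraries fall into 3 groups, which every r spans, and no p is attached. For Mndal these were Gbp2b (r = 0.976), Irgm2 and Aida, for Ifi203 Ddx60 (0.982), Ddx58 and Samd9l, and for Ifi204 Ifit2 (0.962), Rsad2 and Ifit3b. Ifi207 was closest to Cd274 (0.956), Mx2 and Ifitm1, and Ifi211 to Parp10 (0.986), Trim30a and Irf7. For Ifi209 they were Cacna1h (0.940), Slc25a34 and Il6ra, and for Aim2, beside a predicted gene, Rasl11a (0.902) and Zkscan14.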

How the data were processed

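Bulk RNA sequencing of mouse cerebellum gave 12 libraries in 3 groups of 4, taken from the labels. The authors deposited read counts for 57010 Ensembl genes, and per the submitters' processing notes Trim Galore, HISAT2 and featureCounts were used with the GRCm39 build. Tool versions, annotation, strand setting and the treatment of multi-mapped reads: not given in the sources used here. GRCm39 is the C57BL/6J genome. The mice without the knockout are labelled FVB, and the background strain of the knockout line is not given.

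Symbols, exonic lengths, overlaps and neighbours came from GENCODE M21 (GRCm38), which named 52029 genes holding 99.4% of counts. Promoters came from RefSeq (GRCm38.p6). The members, gene lists, tests and naming rule were chosen with earlier results of these data known. The text names all p200 genes, up to 4 genes per pathway list by smallest p, neighbours within 1 Mb by smallest p, and the 3 closest genes by Pearson r. A gene that this rule names is not reported here.

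The filterByExpr function of edgeR, with a minimum count of 10 and a minimum total of 15, left 19166 genes. They were fitted with edgeR 4.0.16 in R 4.3.3 (TMM, robust quasi-likelihood, 3 group means, 9 residual degrees of freedom, common biological coefficient of variation 0.152), with Benjamini-Hochberg adjustment over all tested genes and a threshold of 0.05. SE was derived as |log2 fold change| divided by the root of the F statistic. Counts at an unadjusted p under 0.05 and calls by DESeq2 or limma-voom are not set against a share over all tested genes. CPM uses library totals of tested genes scaled by TMM. Fold ratios compare summed counts over summed library totals, and exact intervals (95%) cover counting error only. Alternatives were DESeq2 1.42.0, limma-voom (limma 3.58.1), RLE scaling, no filter, at least 10 counts in 8 libraries, only the 2 groups compared, a replicate block, and omission of each library in turn. Omission of the 3 libraries above 1000 CPM of Ttr, and of each treated library for the folds of genes below the filter, was added after seeing the data. The fit was tested on simulated counts.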

Additional observations from a re-analysis of the deposited data

Results flagged for a closer look

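In 116 groups of 4 libraries, 1 library lay far from the others by Dixon's criterion in 8. For normally distributed values chance flags about 1 in 20. Where all libraries but 1 are at 0, the flag is fixed whatever the count, so the 8 cannot be set against that rate. Among p200 genes, Ifi205 was at 0.104 CPM in saline knockout 1 (4 counts) and 0 in the other 3. In treated knockout 1 Ifi205 was at 0.248 CPM, below 0.499 to 0.536 CPM in the others. Ifi211 was at 0.0406 CPM in FVB 3 (2 counts) and 0 in the other FVB libraries. Ifi206 was at 0.0393 CPM in saline knockout 4 (2 counts) and Ifi208 at 0.101 CPM in saline knockout 2 (4 counts), each at 0 in the rest of the group. Among pathway genes, Ifit2 was at 6.07 CPM in saline knockout 4 against 6.54 to 6.61 CPM in the others. Pycard, the adaptor of the AIM2 inflammasome, was at 0.882 CPM in saline knockout 2 against 0.487 to 0.547 CPM. Zbp1 was at 0.742 CPM in FVB 2 against 0.122 to 0.191 CPM in the other FVB libraries.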

How the results depend on the processing

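Of the listed p200 genes, 1 was called between saline knockout and FVB under every alternative, 4 to 7 after poly(I:C) and 4 to 8 in treated knockout against FVB, against 1, 6 and 6 in the fit reported. The lowest came with at least 10 counts required in 8 libraries, where fewer genes are tested, and the highest without a filter, where Ifi205 was called in both treated comparisons and Ifi214 in the one against FVB. Pathway genes called were 1, 27 and 28, and under DESeq2 3 were called between saline knockout and FVB, where Ifi44 (1.21) and Ifnar1 (0.22) passed. Replicate numbers did not pair the libraries (correlations of deviations -0.0987 to 0.145), and the fit with a replicate block called the same numbers, 1, 6 and 6 members and 1, 27 and 28 pathway genes. Signs turned for small differences between saline knockout and FVB: Ifi203 (-0.10 without saline knockout 2, up to 0.32 as other libraries were left out, -0.10 without the libraries with high Ttr), Ifi208 (-0.27 under limma-voom, -0.17 and -0.05 without FVB 3 and 4, -2.92 without saline knockout 2 and up to 1.26 as others were left out, -2.93 without the libraries with high Ttr, from 7 counts in all), Irf3 (-0.027, up to 0.19 as others were left out) and Samhd1 (-0.0022, up to 0.14) without saline knockout 4, and Tbk1 (-1.037e-05, up to 0.093) without FVB 2. After poly(I:C) the sign of Aim2 turned (-0.018) without the libraries with high Ttr. Without those libraries Il18 in treated knockout against FVB was also lost (-0.37, adjusted p = 0.163, edgeR), and the cause of these changes was not tested. RLE scaling moved the median of all genes by less than 0.1 in each comparison. Genes with under 10 counts in a group, such as Ifi205, Ifi211, Ifi213 and Ifi214, are limited by counting error.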
